A study of Mus musculus with 4 samples.

Results

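Zfp genes are mouse genes named for a zinc finger protein and a number, and those expressed in mouse embryonic stem (ES) cells are described here in Myh9 KO and wild-type (WT) cells. Members were the rows whose name was Zfp followed by a number alone and whose mean over the 4 libraries was at least 1, leaving out Zfp42 and Zfp352. They were thus selected on their mean over all libraries, without regard to genotype. This gave 167 members of 373 rows so named, among 11231 genes with a mean of at least 1 and 50600 genes in the table. Of the other so-named rows, 159 were listed at 0 in every library and 46 were above 0 with a mean under 1. All cells were of the OG2ES line, a mouse ES cell line of inner cell mass origin, grown in mouse ES medium with 2i, an inhibitor pair that holds such cells in a naive state, with no other treatment. The groups were 2 libraries of Myh9 KO cells, which lack normal levels of the gene for the non-muscle myosin IIA heavy chain, and 2 libraries of WT cells. The comparison asks how the transcriptome differs when Myh9 is deficient. How the deficiency was made and the number of clones are not given in the sources used here, so the effect of losing Myh9 and a difference particular to the KO line cannot be told apart.

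Most Zfp genes encode proteins with a row of C2H2 fingers, small loops held by a zinc ion between a pair of cysteines and a pair of histidines, each of which reads a few bases of DNA. Many also carry a KRAB domain at the N terminus, which recruits Trim28 (KAP1) and through it the H3K9 methyltransferase Setdb1, HP1 proteins and DNA methylation. In ES cells such KRAB zinc finger proteins silence endogenous retroviruses and hold the methylation of imprinted regions, and their genes lie in clusters that grew by local duplication. Others in the family have no KRAB domain and act as transcription factors, on RNA and ribosomes, or as ubiquitin and SUMO ligases.

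The values were deposited as whole numbers that summed to 992245 and 992317 in the Myh9 KO libraries and 992128 and 992098 in the WT libraries. They were treated as a score relative to the library, of unknown depth, so no counting interval can be given, and a single step of 1 weighs heavily for low genes. Myh9 stood at 9 in each Myh9 KO library, against 83 and 100 in WT. The 10 ES cell markers checked all reached a mean of 1, and their sum was 8777 and 8624 in Myh9 KO, against 10004 and 10226 in WT. Within that list 2 markers fell, Dppa5a (3438 and 3205 in Myh9 KO, against 4755 and 4841 in WT) and Sox2 (126 and 121 in Myh9 KO, against 177 and 183 in WT). The other 8 were not called, among them Nanog at 664 and 641 in Myh9 KO, against 616 and 622 in WT, and Pou5f1 at 3104 and 3189 in Myh9 KO, against 3045 and 3122 in WT. Of these 8, Zfp42 stood at 210 and 181 in Myh9 KO, against 140 and 142 in WT. Klf4 stood at 65 and 69 in Myh9 KO, against 51 and 59 in WT, and Esrrb at 461 and 488, against 498 and 555. The lower sum of the list lies mostly in Dppa5a and does not describe the markers as a set. Of 12 feeder fibroblast markers, 9 were at 0 in every library, Col1a1, Col3a1 and Postn among them, and the list summed to 40 and 41 in Myh9 KO, against 54 and 56 in WT. Most of that sum was a single gene, Fstl1, at 35 and 34 in Myh9 KO, against 50 and 52 in WT. Thy1 went the other way, at 4 and 5 in Myh9 KO, against 3 and 4 in WT. The part of either marker difference in the results was not tested.

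The summed level of the family overlapped between genotypes, and few of its members were called. The members summed to 2747 and 2837 in Myh9 KO, against 2801 and 2884 in WT, which was 0.277% and 0.286% of the total in Myh9 KO and 0.282% and 0.291% in WT. In bulk RNA, fewer cells of a type and less RNA per cell cannot be told apart. The words rose and fell are kept for genes where limma-trend on log2(value + 1) and the same fit with random decimals added to the whole numbers both gave a Benjamini-Hochberg adjusted p under 0.05 in that direction. By this rule 4 members rose, 2.40% of them, against 5.13% of all tested genes, and 5 fell, 2.99%, against 5.8% of all tested genes. The median value was 5.5 for members and 14.75 for all tested genes. The part of this lower level in the smaller shares was not tested. The median log2 difference of members was -0.01 (SD 0.0283 over the 4 pairings of a Myh9 KO with a WT library), against 0 for all tested genes. The pairings reuse the same libraries and their medians ran from -0.057 to 0, so the SD is not a spread over independent replicates. The interquartile range of the members was -0.25 to 0.12. The Myh9 KO values all lay above the WT values in 23 members, with 26.2% of all tested genes so placed, and all below in 39 members, with 27.3% of all tested genes so placed.

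Low values limit these counts. In 21 members the replicates were equal whole numbers in both groups, which leaves limma no spread within a genotype. By limma alone 6 members were higher and 12 lower, where 7.17% of all tested genes were higher, 7.96% lower and 15.1% called in either direction. With random decimals alone 11 were higher and 14 lower, where 11.1% and 12% of all tested genes were, 23.1% in either direction. The calls of a single fit numbered 9 for limma, 7 of them with equal replicates in both groups, and 16 for random decimals. For 7 members the mean was under 1 in one genotype, so that they entered through the other: Zfp972, Zfp748, Zfp990, Zfp286 and Zfp809 through WT, and Zfp467 and Zfp950 through Myh9 KO. Among the 160 members with a mean of at least 1 in both groups, 4 rose and 3 fell.

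**Figure D1:**
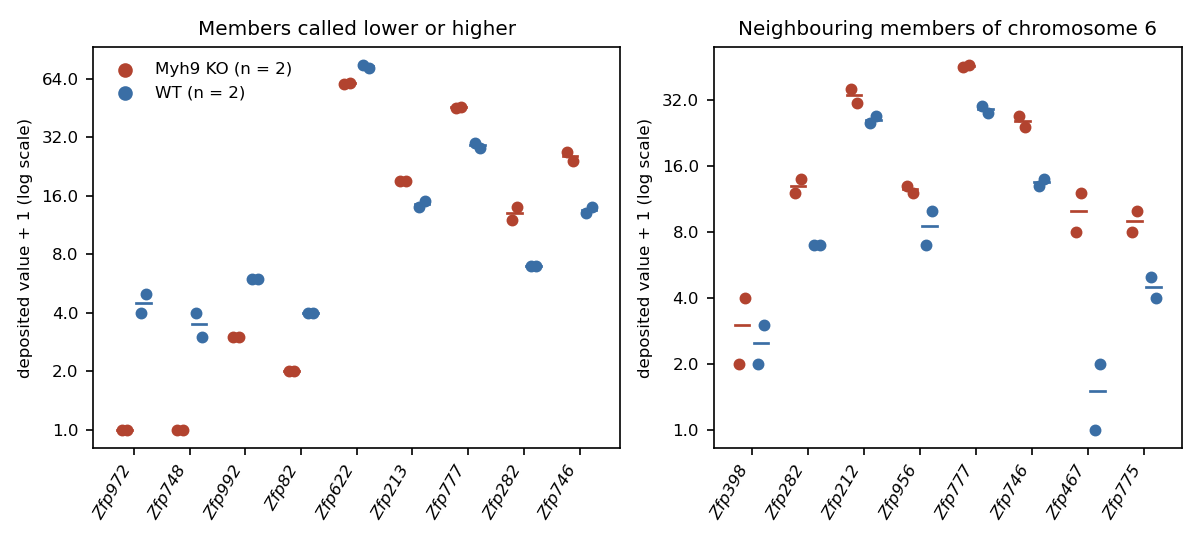
Deposited value + 1 on a log axis for the 9 called members (left) and the 8 neighbouring members of chromosome 6 (right). Points are libraries, 2 per genotype, Myh9 KO left of WT, and bars are the mean of each genotype. The Myh9 KO values of Zfp972 and Zfp748 were 0, and in 7 of the 8 chromosome 6 members every Myh9 KO point lies above every WT point. The same held for 366 of the 543 other tested genes of chromosome 6 and 26.2% of all tested genes.

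Of the 4 members that rose, 3 are neighbours in a run of Zfp genes on chromosome 6. Zfp746, also called PARIS, is a KRAB repressor that the ligase parkin marks for degradation and that represses Ppargc1a. It stood at 26 and 23 in Myh9 KO, against 12 and 13 in WT, and was higher by 0.92 on the log2 scale (SE 0.09, limma adjusted p = 0.0332). Zfp282 is a KRAB gene whose human counterpart was found as a repressor of a retroviral promoter. It stood at 11 and 13 in Myh9 KO, against 6 in each WT library (log2 difference 0.89, SE 0.10, limma adjusted p = 0.0402). Zfp777, another KRAB gene, stood at 44 and 45 in Myh9 KO, against 29 and 27 in WT (log2 difference 0.65, SE 0.05, limma adjusted p = 0.0216). In all 3 genes the libraries of a genotype lay close together and the genotypes did not overlap, as in 26.2% of all tested genes in that direction.

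The run spans 788 kb of mm10 chromosome 6, from 47835661 to 48623227, and holds 8 members, Zfp398, Zfp282, Zfp212, Zfp956, Zfp777, Zfp746, Zfp467 and Zfp775, of which 5 match a KRAB profile. It was singled out after the values were seen. The 8 genes summed to 143 and 145 in Myh9 KO, against 82 and 87 in WT. Each had a positive difference, with a median of 0.77 on the log2 scale. Without Zfp467, which entered only through Myh9 KO, the sums were 136 and 134 in Myh9 KO, against 82 and 86 in WT, and the median was 0.65. Zfp467, which promotes adipocyte fate in mouse stromal cells, stood at 7 and 11 in Myh9 KO, against 0 and 1 in WT, and passed only with random decimals (adjusted p = 0.001, limma adjusted p = 0.079). Zfp775 stood at 7 and 9 in Myh9 KO, against 4 and 3 in WT, and Zfp212 at 35 and 30 in Myh9 KO, against 24 and 26 in WT. Both likewise passed only with random decimals (adjusted p = 0.011 and 0.040), where limma gave adjusted p = 0.093 and 0.158. Zfp956 and Zfp398 passed neither fit, with 12 and 11 in Myh9 KO against 6 and 9 in WT, and with 1 and 3 in Myh9 KO against 1 and 2 in WT.

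Other genes of the same stretch were mostly higher as well. The 6 other tested genes between Zfp398 and Zfp775 had a median log2 difference of 0.74. Krba1, named for a KRAB A domain, rose, at 20 and 21 in Myh9 KO against 10 and 11 in WT. Repin1, a zinc finger gene outside the Zfp naming, rose too, at 16 in each Myh9 KO library against 10 in each WT library. Gm7887, a processed pseudogene, stood at 38 and 34 in Myh9 KO against 34 and 39 in WT.

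The sequence upstream of the chromosome 6 members that rose is shown with that of Zfp748 and Zfp82, members that fell, so that the base composition of these starts can be compared. Each is the 250 bases before a RefSeq start of the gene (GRCm38.p6), on the strand of the gene. Where RefSeq lists several starts, the one nearest the gene start in the deposited table was taken. Capitals mark a match to the GC box GGGCGG, the CCAAT box CCAAT or the TATA box TATAAA, searched on both strands, so a match on the other strand reads as its reverse complement. The windows are chr6:48086594-48086843 (minus strand) for Zfp746, chr6:47877305-47877554 (plus) for Zfp282, chr6:48047795-48048044 (minus) for Zfp777, chr13:67553153-67553402 (minus) for Zfp748 and chr7:30072824-30073073 (minus) for Zfp82. The RefSeq start lay 351 bases from the start in the deposited table for Zfp282 and 1117 bases for Zfp777, and at most 77 bases away for the others.
Zfp746: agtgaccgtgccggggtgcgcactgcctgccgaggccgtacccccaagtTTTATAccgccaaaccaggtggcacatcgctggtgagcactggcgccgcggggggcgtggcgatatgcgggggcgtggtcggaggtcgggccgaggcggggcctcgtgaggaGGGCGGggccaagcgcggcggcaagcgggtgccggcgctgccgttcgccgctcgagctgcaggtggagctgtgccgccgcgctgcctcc
Zfp282: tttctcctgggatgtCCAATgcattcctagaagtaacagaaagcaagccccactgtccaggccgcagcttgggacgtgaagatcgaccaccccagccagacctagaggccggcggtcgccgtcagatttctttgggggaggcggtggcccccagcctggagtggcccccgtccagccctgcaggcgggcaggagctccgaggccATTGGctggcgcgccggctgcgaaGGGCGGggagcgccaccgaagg
Zfp777: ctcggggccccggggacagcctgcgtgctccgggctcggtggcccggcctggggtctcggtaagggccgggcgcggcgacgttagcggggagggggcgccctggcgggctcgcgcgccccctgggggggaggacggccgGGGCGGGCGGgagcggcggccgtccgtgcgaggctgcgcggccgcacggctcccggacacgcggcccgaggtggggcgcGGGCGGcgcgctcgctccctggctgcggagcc
Zfp748: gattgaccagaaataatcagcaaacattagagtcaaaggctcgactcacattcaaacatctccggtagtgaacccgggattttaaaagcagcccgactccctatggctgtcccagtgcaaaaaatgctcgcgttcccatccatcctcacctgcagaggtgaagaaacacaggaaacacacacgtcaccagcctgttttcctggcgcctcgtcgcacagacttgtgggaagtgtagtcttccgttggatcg
Zfp82: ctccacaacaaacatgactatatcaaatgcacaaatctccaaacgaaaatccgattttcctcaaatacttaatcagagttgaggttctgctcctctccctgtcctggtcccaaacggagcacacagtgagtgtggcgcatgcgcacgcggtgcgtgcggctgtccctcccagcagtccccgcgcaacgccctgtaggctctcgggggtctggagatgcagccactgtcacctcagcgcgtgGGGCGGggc

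The 3 chromosome 6 windows held 66.8% to 84% G and C, against 50.4% for Zfp748 and 57.6% for Zfp82. The window of Zfp622, another member that fell, is not printed and held 60%. Each of the 3 chromosome 6 windows held a GC box, as did Zfp82 and Zfp622, and no motif was matched for Zfp748. The remaining called members are not covered, so rises and falls are not compared as sets. Over the 130 members found in the RefSeq table, 50% held a GC box, against 32.9% of 27025 promoters of the same length. Those 27025 were the first listed start of each RefSeq gene, with no filter on expression. Members had passed such a filter and used the start nearest the deposited one. The shares given here thus do not compare the family with other expressed genes. An ETS motif (CCGGAAG) was in 16.2% of members and 7.05% of all promoters, a CCAAT box in 43.8% and 34.5%, and a TATA box in 9.23% and 12.97%. The members differed among themselves, with a GC box in 29.8% of 57 promoters of KRAB genes and 65.8% of 73 promoters of genes without a KRAB match. A match describes letters and does not show that the factor binds.

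The values of chromosome 6 were higher in Myh9 KO both in the family and outside it, described here without a test. Its 12 members had a median log2 difference of 0.62 and 3 of them rose, where 30.6% of the 543 other tested genes of the chromosome rose and their median was 0.45. Beyond the run, Zfp637 stood at 28 and 25 in Myh9 KO, against 16 and 12 in WT, and Zfp384, a C2H2 transcription factor, at 61 and 69 in Myh9 KO, against 45 and 41 in WT. Both passed only with random decimals (adjusted p = 0.004 and 0.003), where limma gave adjusted p = 0.098 and 0.070. Chromosome 8 was the other chromosome where many other genes rose, 81 of 632, with a median of 0.21. Its 14 members had a median of 0.08, none passed limma or the fit with random decimals, and 2 had an unadjusted p under 0.05. Leaving out chromosomes 6 and 8, 1 of 141 members rose and 5 fell, with a median of -0.11, and of the 9889 other tested genes 3.29% rose and 6.28% fell, with a median of -0.02. The number of copies of these chromosomes was not measured, so more copies and more RNA per copy cannot be told apart.

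**Figure D2:**
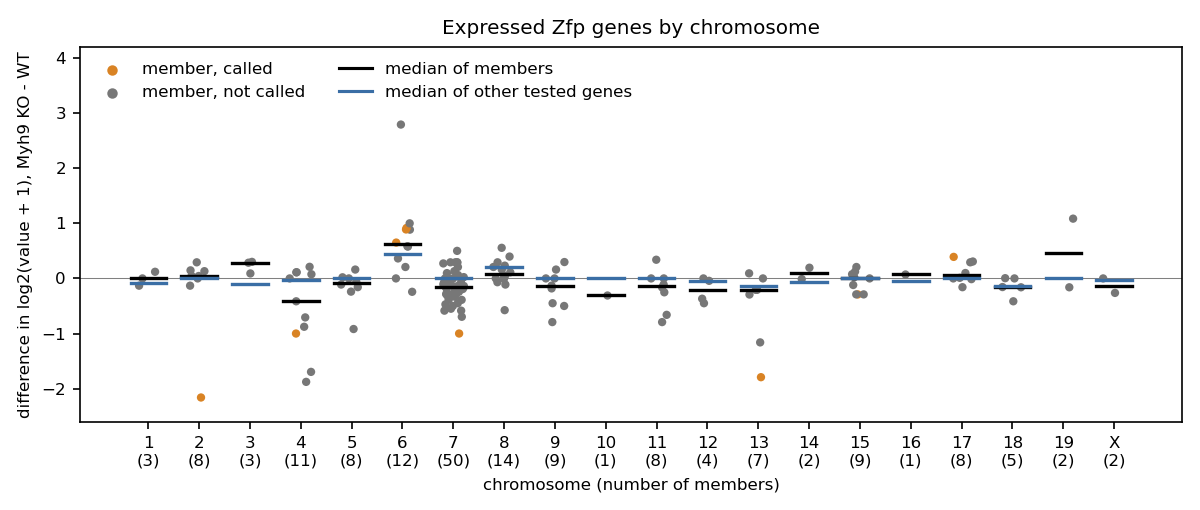
Difference in log2(value + 1), Myh9 KO minus WT, for each member (points) by chromosome, with the number of members in parentheses. Bars are medians of members (black) and of the other tested genes of the chromosome (blue). Members and other genes both stand above 0 on chromosome 6, at medians of 0.62 and 0.45, and the chromosome 4 members have a median of -0.42, against -0.02 for the other genes.

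Chromosome 7 carries the most members, 50, with a median of -0.15 against 0 for its other tested genes, and 1 of the 50 fell and none passed both fits upward, 2% and 0%, with 0 upward by limma alone and 1 with random decimals alone. Of its 869 other tested genes 7.13% fell and 5.06% rose, so members were called in smaller shares in both directions. The median value was 5.375 for these members and 17.5 for the other genes of the chromosome. Of 5 clusters of at least 4 members with gaps under 500 kb, 4 lie on chromosome 7. Their medians were -0.19 (5 members), -0.14 (7), -0.29 (9) and -0.09 (9). The cluster with -0.29 runs from 29768552 to 30169750, with Zfp568 and Zfp82 in it and 8 of its 9 members matching the KRAB profile. The 2 other tested genes of that span had a median of 0.86.

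The members that fell were mostly KRAB genes of low value. Zfp82 on chromosome 7 stood at 1 in each Myh9 KO library, against 3 in each WT library (log2 difference -1, SE 0.01, limma adjusted p = 0.000976, adjusted p = 0.031 with random decimals). Zfp992 on chromosome 4 stood at 2 in each Myh9 KO library, against 5 in each WT library (log2 difference -1, SE 0.01, limma adjusted p = 0.0011, adjusted p = 0.017 with random decimals). Their replicates were equal whole numbers, so the errors rest on the spread borrowed from other genes. Zfp972 on chromosome 2 was listed at 0 in each Myh9 KO library, against 3 and 4 in WT, and Zfp748 on chromosome 13 at 0 in each, against 3 and 2 in WT. These 2 genes, whose mean was under 2, are named after their values were seen. In 3 of these 4 genes much of the sequence is shared with other annotated genes. The 50-base words so shared were 94.4% for Zfp82, 48.4% for Zfp972 and 43.7% for Zfp992, against 9.92% for Zfp748. Reads of the first 3 may thus be divided among genes. For Zfp82, 34.2% of the exon length overlaps Gm26920, and how much of its sharing comes from that overlap was not separated. Zfp972 and Zfp992 had no exon overlap.

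Zfp992 lies in a run of 6 KRAB members on mm10 chromosome 4, from 145510759 to 147585198, singled out after the values were seen. This run spans 2074 kb with gaps above 500 kb, so it is looser than the 5 clusters described above and not among them. The run of Zfp990, Zfp992, Zfp981, Zfp993, Zfp982 and Zfp985 summed to 14 and 13 in Myh9 KO, against 27 and 35 in WT, with a median log2 difference of -0.94. Without Zfp990, which entered only through WT, the sums were 13 in each Myh9 KO library, against 25 and 29 in WT, and the median was -0.88. Zfp981 stood at 2 and 1 in Myh9 KO, against 8 in each WT library, a log2 difference of -1.88 that passed only with random decimals (adjusted p = 0.002, limma adjusted p = 0.053). Zfp990 stood at 1 and 0 in Myh9 KO, against 2 and 6 in WT, and Zfp993 at 3 in each Myh9 KO library, against 5 and 8 in WT. Zfp982 went the other way, with 4 and 6 in Myh9 KO against 4 and 5 in WT, where the groups overlap. The 8 other tested genes of the span, among them pseudogenes and long noncoding RNAs, had a median of -1.04. Gm13166, a long noncoding RNA, fell, at 8 and 6 in Myh9 KO against 19 and 20 in WT, and Gm13228, a processed pseudogene, fell, at 2 in each Myh9 KO library against 11 and 8 in WT. Gm13237, a processed pseudogene and the gene of the span with the largest values, stood at 41 and 47 in Myh9 KO against 55 and 48 in WT. Gm26880, a long noncoding RNA, went the other way, at 9 and 11 in Myh9 KO against 9 and 8 in WT. Neither was called. The 6 members had 35.5% to 39.1% G and C in the longest coding transcript, at the low end of the family, and 11.5% to 86.8% shared words.

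The last members called carry other roles. Zfp622 encodes a factor that acts late in the maturation of the large ribosomal subunit, and it fell, at 59 and 60 in Myh9 KO against 74 and 72 in WT (log2 difference -0.29, SE 0.02, limma adjusted p = 0.0248). Zfp213, a KRAB gene on chromosome 17, rose, at 18 in each Myh9 KO library against 13 and 14 in WT (log2 difference 0.39, SE 0.05, limma adjusted p = 0.0449). Its exons overlap other annotated genes over 56.6% of their length, and the protocol marks no strand, so their reads cannot be told apart. With each library left out in turn, the call was kept in 2 of 4 fits for Zfp282, Zfp972 and Zfp992, and in 1 for Zfp777, Zfp748 and Zfp82. Zfp746, Zfp213 and Zfp622 lost it in each fit. The range of limma adjusted p over those fits was 0.0916 to 0.177, 0.0287 to 0.207 and 0.0831 to 0.116 for the 3 genes in that order. Their log2 differences stayed between 0.83 and 1.00 for Zfp746, 0.34 and 0.44 for Zfp213 and -0.31 and -0.27 for Zfp622.

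GC content went with the difference, in members and in other genes alike. Tested genes were put into 5 GC classes of near-equal size. The 43 members in the class of lowest GC content, 31.9% to 45.6%, had a median log2 difference of -0.16, the same as the other tested genes there. From the next class to the highest, the member medians were -0.08, -0.05, 0.12 and 0.07, and those of the other genes -0.06, 0, 0.06 and 0.11. All 5 falls lay in the 3 lowest classes and all 4 rises in the 2 highest. The other genes had falls in 6.497% of the lowest class and 2.99% of the highest, and rises in 1.64% and 7.93%. The Myh9 KO replicates differed along the same axis: the median of Myh9 KO 2 minus Myh9 KO 1 was -0.14 in the lowest class and 0.09 in the highest for the other genes, and 0 and 0.11 for members. Its part in the differences was not tested beyond removing the trend.

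With the trend on GC content and transcript length removed from each library, 8 members were called higher and 10 lower, 4.79% and 5.99%, where 12.2% of all tested genes were called higher and 10.9% lower. Of the 8 rises, 7 were on chromosome 6: Zfp777, Zfp384, Zfp746, Zfp282, Zfp775, Zfp637 and Zfp467. The falls were Zfp972, Zfp748, Zfp981, Zfp82, Zfp622 and 5 more of higher value or GC content, Zfp296, Zfp428, Zfp553, Zfp568 and Zfp13. Zfp213 (limma adjusted p = 0.107) and Zfp992 (adjusted p = 0.073 with random decimals) were no longer called. The run on chromosome 4 had a median of -0.53 after this step and the run on chromosome 6 a median of 0.64.

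**Figure D3:**
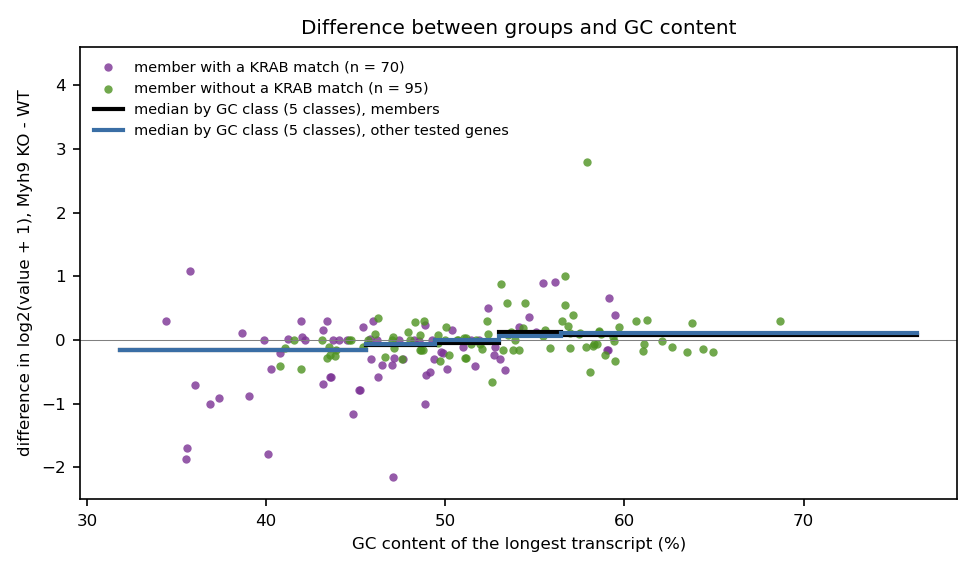
Difference in log2(value + 1), Myh9 KO minus WT, against the GC content of the longest coding transcript. Points are 70 members with a KRAB match and 95 without. Bars are the medians in each of 5 GC classes for members (black) and other tested genes (blue). The medians of both run from -0.16 in the lowest class to 0.07 for members and 0.11 for other genes in the highest.

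The proteins split the family by a feature that its choice did not use. Of the 165 members with a coding transcript, 70 matched a KRAB A box profile and 95 did not. Of the KRAB members 4 rose and 4 fell, with a median log2 difference of -0.14, a median GC content of 46.7% and a median value of 3.0. These are 5.71% in each direction, near the 5.13% and 5.8% of all tested genes. Of those without a KRAB match none passed both fits upward and 1, Zfp622, fell, with a median of 0, a GC content of 52.6% and a median value of 9.75. For members without a match, 2 passed limma alone upward and 6 random decimals alone. Outside chromosomes 6 and 8 the medians were -0.21 over 59 KRAB members and -0.01 over 80 others. Within the lowest GC class the medians were -0.21 over 29 KRAB members and -0.13 over 13 others, and in the next class -0.29 over 19 and 0 over 16. With the GC and length trend removed the medians were -0.13 for KRAB members and -0.01 for the others, and 6 of the 8 KRAB calls were kept. None of these differences between classes was tested, and the part of the lower values of KRAB members was not tested. The number of fingers matched ran from 0 to 36 with a median of 9, and the called members held between 0 and 23. Of 28 members with over 20% shared words 1 rose and 3 fell, 3.57% and 10.7%, and of 108 with under 5% shared words 3 rose and 1 fell, 2.78% and 0.93%. Over all tested genes 5.13% rose and 5.8% fell. The 3 rises under 5% are the chromosome 6 neighbours Zfp746, Zfp282 and Zfp777, and the part of shared sequence in the calls was not tested.

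The 5 members with the largest deposited values did not pass the call rule on the values as deposited, and for several of them this depended on GC content. Whether the scale is per transcript length is not stated, so values of different genes are not ranked as RNA levels here. Zfp57 encodes the KRAB protein that binds methylated imprinting control regions and keeps their methylation in ES cells. It stood at 269 and 272 in Myh9 KO, against 271 and 266 in WT, and the 95% interval of the ratio on the value + 1 scale was 0.969 to 1.05 (limma adjusted p = 0.696). With the GC and length trend removed its log2 difference was 0.18, against 0.01 as deposited, and it was not called (limma adjusted p = 0.085). Zfp568, which represses a placental transcript of Igf2 in the mouse, stood at 38 and 34 in Myh9 KO, against 41 and 47 in WT (log2 difference -0.28, limma adjusted p = 0.219), and was called lower with the trend removed (log2 difference -0.27, limma adjusted p = 0.035). Neither of these 2 imprinting members was called on the values as deposited, and Zfp445, the third gene of that list, was not a member. Zfp428 stood at 225 and 256 in Myh9 KO, against 263 and 265 in WT (limma adjusted p = 0.393), and Zfp553 at 113 and 123 in Myh9 KO, against 123 and 128 in WT (limma adjusted p = 0.412). Both were called lower with the trend removed: Zfp428 with a log2 difference of -0.24, against -0.14 as deposited (limma adjusted p = 0.009), and Zfp553 with -0.24, against -0.09 as deposited (limma adjusted p = 0.013).

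Of 5 genes listed for retroelement repression 3 were members, and none passed both fits. Zfp932, which silences a class of endogenous retroviruses, stood at 6 and 3 in Myh9 KO, against 9 in each WT library (log2 difference -0.92, limma adjusted p = 0.216, adjusted p = 0.037 with random decimals), with 45.2% of its words shared. With the GC and length trend removed its log2 difference was -0.49 and it passed neither fit (limma adjusted p = 0.156, adjusted p = 0.119 with random decimals). Zfp819 stood at 5 and 6 in Myh9 KO, against 8 and 9 in WT (log2 difference -0.55, limma adjusted p = 0.103). Zfp809, which recognizes the primer binding site of murine leukaemia virus, stood at 1 and 0 in Myh9 KO, against 1 and 2 in WT. The 3 genes were low, and a step of 1 is a large part of each value.

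Of 9 genes listed as ES cell regulators 8 were members. None passed both fits, and 3 passed only with random decimals, all lower, where 12% of all tested genes were lower in that fit. Zfp296, which acts in reprogramming and heterochromatin, stood at 92 and 100 in Myh9 KO, against 119 and 123 in WT (log2 difference -0.33, limma adjusted p = 0.073, adjusted p = 0.009 with random decimals). Zfp207, a mitotic spindle and splicing factor, stood at 124 and 111 in Myh9 KO, against 135 and 145 in WT (log2 difference -0.25, limma adjusted p = 0.176, adjusted p = 0.037 with random decimals). The other such member, Zfp706, a small protein that restrains self-renewal, stood at 58 and 53 in Myh9 KO, against 68 in each WT library. In these 3 genes the genotypes did not overlap, as in 27.3% of all tested genes in that direction. With the GC and length trend removed the log2 difference was -0.06 for Zfp207 and -0.17 for Zfp706, neither called, and -0.47 for Zfp296, which was called (limma adjusted p = 0.0028). Zfp217, Zfp462 and Zfp143 each had the same pair of values in both genotypes, and Zfp281 was 1 in every library.

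Of 8 genes listed for RNA and translation 7 were members, and Zfp622 alone was called. Zfp598, the ligase that marks collided ribosomes, stood at 53 and 58 in Myh9 KO, against 54 and 58 in WT. Zfp36, tristetraprolin, which speeds the decay of AU-rich mRNAs, stood at 3 in each Myh9 KO library, against 3 and 4 in WT. The ubiquitin ligase Zfp91 stood at 8 and 7 in Myh9 KO, against 8 and 9 in WT, and the SUMO ligase Zfp451 at 4 in each Myh9 KO library, against 5 and 4 in WT. Of 13 other chromatin and promoter factors 11 were members, and none passed both fits. Zfp687, a partner of the chromatin reader Zmynd8, stood at 45 and 49 in Myh9 KO, against 36 and 40 in WT, and passed only with random decimals (log2 difference 0.30, adjusted p = 0.043, limma adjusted p = 0.146). With the trend removed its log2 difference was 0.18 and it passed neither fit (limma adjusted p = 0.080).

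The co-repressors that KRAB proteins work through were mostly not called, as were most tested genes. Of 28 genes listed 24 were tested, and 1 rose and 1 fell, with a median log2 difference of -0.02. Over all tested genes 5.13% rose and 5.8% fell, so a list of this size is too small to differ visibly. Trim28, the scaffold that KRAB domains bind, stood at 2751 and 2857 in Myh9 KO, against 2912 and 2818 in WT, with a 95% interval of the ratio of 0.905 to 1.06 (limma adjusted p = 0.550). Setdb1 stood at 39 and 38 in Myh9 KO, against 38 and 42 in WT, with an interval of 0.824 to 1.13 (limma adjusted p = 0.626). Chd3, a NuRD remodeller that binds Trim28, rose, at 18 and 17 in Myh9 KO against 10 and 11 in WT (log2 difference 0.69, SE 0.07, limma adjusted p = 0.0332). Hdac2, a histone deacetylase of NuRD, fell, at 52 and 51 in Myh9 KO against 72 and 74 in WT (log2 difference -0.50, SE 0.02, limma adjusted p = 0.0111). With the GC and length trend removed, 8 were called higher and 3 lower, 33.3% and 12.5%, where 12.2% and 10.9% of all tested genes were. Of the 8, 4 lie on chromosome 6 (Smarcad1, Atf7ip, Chd4 and Cbx3), where 296 of the 543 genes outside the family were called higher after the same step. Trim28 was among the 3 lower, with a log2 difference of -0.19 (limma adjusted p = 0.0398).

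**Figure D4:**
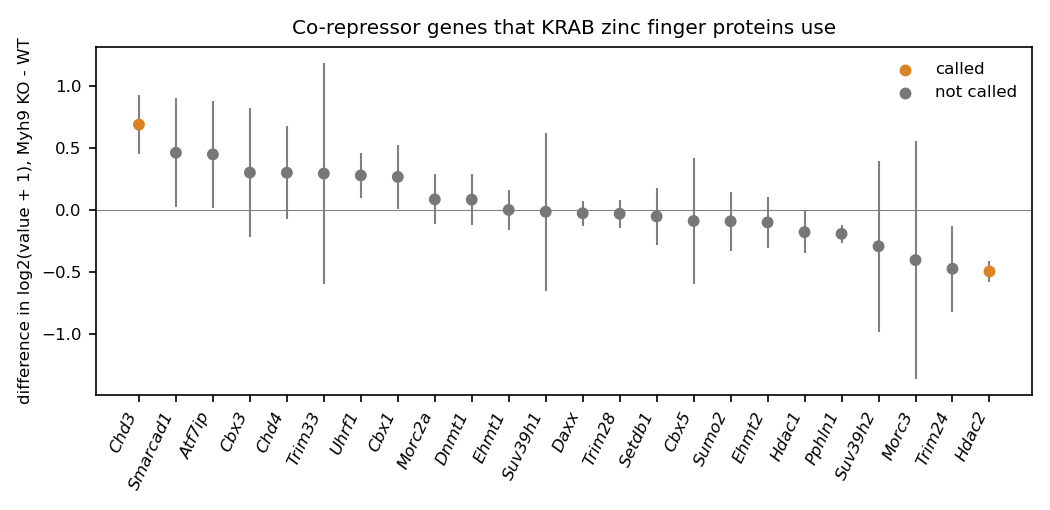
Difference in log2(value + 1), Myh9 KO minus WT, of the 24 tested co-repressor genes, ordered by size. Lines are 95% confidence intervals of the limma fit, n = 2 libraries per genotype. Chd3 at 0.69 and Hdac2 at -0.50 were called, and Trim28 and Setdb1 lie at -0.03 and -0.05 with intervals that include 0.

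Genes of other zinc finger families were counted by the same rule. Of 44 tested genes named Zbtb, Zkscan or Zscan and a number, with or without a letter and leaving out Zscan4, none passed both fits upward, 1 passing with limma alone and 1 with random decimals alone, and 1 fell, with a median log2 difference of -0.05. These are 0% and 2.27%, where 5.13% of all tested genes rose and 5.8% fell, and 44 genes are few for such shares. The gene that fell was Zscan21, at 11 in each Myh9 KO library against 17 and 16 in WT. Of 10 genes whose Zfp name carries a letter or other suffix, Zfp36l2, a relative of tristetraprolin, stood at 26 in each Myh9 KO library against 18 and 19 in WT, and Zfp36l3 at 3 in each against 1 in each, and both rose.

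The limit of a mean of 1 passes through a dense part of the family. Just inside it, Zfp27, Zfp281 and Zfp454 were 1 in every library, and Zfp286 stood at 1 and 0 in Myh9 KO, against 2 and 1 in WT. Just outside, at a mean of 0.75, Zfp825 and Zfp979 stood at 1 and 0 in Myh9 KO, against 1 in each WT library, Zfp936 at 0 in each Myh9 KO library, against 2 and 1 in WT, and Zfp949 at 1 in each Myh9 KO library, against 0 and 1 in WT. Of the members, 27 had a mean under 2, 11 of them at exactly 1, 81 had a mean of 2 to under 10, 46 of 10 to under 50 and 13 of 50 or more.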

How the data were processed

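Gene expression was measured by RNA-seq of poly(A)-selected RNA in 2 Myh9 KO and 2 WT libraries of OG2ES cells, grouped by genotype and title, per the labels. The deposited table, on mm10, gives a score per gene and library: the authors' values are whole numbers with near-equal totals, as per-million values without decimals would be, and how they were rounded is not stated. The submitters' processing notes list bcl2fastq, RSEM 1.3.0 and Bowtie2 2.2.5, with no role. As the values are not counts, no count test was run and depth is unknown.

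Every gene whose mean was at least 1 entered limma-trend on log2(value + 1) (R 4.3.3, limma 3.58.1), genotype only, with Benjamini-Hochberg adjustment over all 11231. This scale understates the change of low genes. A call also needed adjusted p under 0.05 in the same fit with a uniform number from 0 to 1 added to each value (median of 25 draws). The labels do not say that replicates were separate cultures, so p-values measure only a spread between libraries that may be technical.

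Coordinates are those of the table; 167 of 167 members were found in GENCODE vM21. The longest open reading frame over all coding transcripts of a gene was searched for C2H2 fingers (C, 2 to 4 residues, C, 12 residues, H, 3 to 5 residues, H). The longest frame of each coding transcript was searched with a KRAB A box profile built from 46 windows of these proteins (pyhmmer 0.12.3, E under 0.001). GC content is that of the longest coding transcript, or of the longest transcript in genes without a coding one. Shared words are 50-base stretches of a transcript found on either strand in other genes, those that overlap it included. The GC and length trend was removed per library by loess (span 0.3).

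Named were the 5 members with the largest mean, up to 10 called in each direction with a mean of at least 2 and no overlap, and from each role list up to 3 called members or, with none, the 1 or 2 largest; from the co-repressors up to 4 called, with Trim28 and Setdb1. Other genes named were chosen after their values were seen. Members and lists were chosen with earlier results of these data known. The closing section gives the alternatives tried.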

Additional observations from a re-analysis of the deposited data

How the results depend on the processing

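With a pseudocount of 0.5, with no filter on low values and after quantile normalization, the counts of members and co-repressors called were as reported, and 9, 9 and 8 of the 9 called members kept their call. With limma alone 12 members and 2 co-repressors were lower. With random decimals alone 11 members were higher and 14 lower, the member median was -0.054, 1242 genes were higher and 1350 lower over all tested genes, against 576 and 651, and 6 co-repressors were higher and 2 lower. With a mean of at least 5, 2 members were lower. With the GC and length trend removed, 8 members were higher and 10 lower, 1366 of all genes higher and 1219 lower, and 8 co-repressors higher and 3 lower. Without chromosomes 6 and 8, 1 member was higher and the median was -0.11. Without members of over 20% shared words, 2 were lower.

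Same-numbered libraries did not deviate together (r = 0.041 over genes), so no pairing by number shows in the values. The labels do not say whether the samples were paired. With the replicate block, 0 members and 0 co-repressors were called in either direction, and over all genes 10 were higher and 44 lower. With the block and the trend removed together, 7 members were higher, 1250 of all genes were higher and 1073 lower, and 7 co-repressors were higher and 2 lower.

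With a library left out, the lone library of its genotype is assumed to vary like the others. Members higher ranged from 0 to 3, lower from 2 to 6, and their median from -0.085 to 0. All genes higher ranged from 139 to 338 and lower from 194 to 413, and co-repressors from 0 to 1 in each direction. Of the 9 called members, 3 kept their call without Myh9 KO 1, and 2 without Myh9 KO 2, WT 1 or WT 2 each. The cause was not tested. Unknown depth and whole numbers limit every value near 1.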
